A study of Mus musculus with 28 samples.

Results

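The genes described here are the mouse glutathione transferases, glutathione peroxidases and peroxiredoxins, with the enzymes that make, recycle and split glutathione. They were chosen by symbol alone, by a pattern that takes in the cytosolic transferase classes Gsta, Gstm, Gstp, Gstt, Gstk, Gsto and Gstz, the membrane-bound Mgst1 to Mgst3, Gpx1 to Gpx8, Prdx1 to Prdx6, the synthesis and recycling genes Gclc, Gclm, Gss and Gsr, and Ggt1, Ggt5, Ggt6 and Ggt7. The pattern found 46 genes among the 47719 listed in each deposited table. Liver RNA was measured in 28 male C57BL/6 mice, 4 in each of 7 groups. Obeticholic acid (OCA), a bile acid derivative, was given at 25 mg/kg. Tropifexor (LJN452), which has no bile acid skeleton, was given at a low, a mid and a high dose. The labels list 0.1, 0.3 and 0.9 mg/kg without saying which group had which, and they are read here in ascending order. Each drug had its own vehicle group, here the OCA vehicle and the tropifexor vehicle. All 6 of these groups ate, from an age of about 6 weeks and for 26 weeks before dosing, food with 40% of its energy as fat that held 22% fructose and 2% cholesterol by weight, which gives a fatty, inflamed and scarred liver (nonalcoholic steatohepatitis), and dosing was by mouth once a day for 4 weeks from week 26. The lean control group, of the same age at the start and with the same 26 weeks of diet, ate food with 10% of its energy as fat and no fructose or cholesterol. No dosing is recorded for it. A vehicle group over lean control therefore differs in diet and in recorded dosing, which cannot be told apart. Such differences are called diet effects below for short. The titles of the vehicle samples name vehicle although their treatment field lists the drug, and the titles were followed.

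Glutathione is a tripeptide made in 2 steps, by glutamate-cysteine ligase (catalytic subunit Gclc, modifier subunit Gclm) and then glutathione synthetase (Gss), and the liver is its main source in the body. Glutathione transferases join it to reactive compounds such as drug metabolites and products of lipid peroxidation, glutathione peroxidases use it to reduce hydrogen peroxide and lipid hydroperoxides, and glutathione reductase (Gsr) recycles the oxidised form. Peroxiredoxins reduce peroxides mainly with electrons from thioredoxin. Many of these genes are known targets of the stress-responsive factor NRF2, and several transferases also respond to nuclear receptors that sense foreign compounds or bile acids. Both drugs activate FXR, the nuclear receptor for bile acids.

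Every level is the authors' group FPKM (fragments per kilobase of transcript, scaled to sequencing depth). Single animals have no value here, and how far they varied is seen only as the Cuffdiff test took it into account. A gene was called when that test had the status OK and a deposited q under 0.05, the q being the p adjusted over all genes tested in that table. The log2 fold changes, too, are as deposited, drug over vehicle or NASH diet over lean control. Of the 46 genes, 40 were tested in all 10 tables, 4 (Ggt1, Gsto2, Mgst2 and Gpx2) in some, and 2 (Gstt4 and Gpx5, both under 0.1 FPKM in all 7 groups) in none. The tables were scaled separately, so levels compared across all 7 groups were set on the lean control scale of the tropifexor vehicle table, and tests were kept within a table.

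Of 7 FXR check genes, 2, 2, 3 and 3 were called higher and 2, 3, 3 and 3 lower under OCA and at the low, mid and high tropifexor doses. Slc51b, a bile acid exporter that FXR induces, was higher by 2.72 (log2) under OCA and by 5.38, 6.01 and 6.08 at the low, mid and high tropifexor doses in the authors' deposited tables, each over its own vehicle, and Cyp8b1, a bile acid synthesis gene, had log2 fold changes of -2.95 under OCA and -6.68, -5.04 and -8.55 at those doses. Abcb11, a bile salt export pump that FXR induces, was called higher at the mid and high doses (2.18 and 2.14) and not at the low dose or under OCA (0.90 and 0.76). Nr1h4, the gene of FXR itself, was called lower at the 3 doses (-1.49, -1.27 and -1.70) and not under OCA (-0.16). The tissue read as liver, with 5 hepatocyte markers summing to between 41266 and 57498 FPKM in the drug tables, while 2 kidney markers summed to at most 0.0759 and 2 pancreas markers to at most 0.311 FPKM there. Hepatocyte markers moved over lean control, summing to 45270 against 70248 FPKM in the OCA vehicle group and 41441 against 70613 FPKM in the tropifexor vehicle group. Of the 5, 1 and 4 were called lower there. Over vehicle Ttr was called lower at the 3 doses (-1.15, -0.55 and -1.34), and Hnf4a higher at the mid and high doses (1.13 and 0.80). Markers of other cells also moved with the groups. Of 7 macrophage markers 6 and 5 were called higher in the OCA and tropifexor vehicle groups over lean control, and 3, 1, 6 and 5 were called lower under OCA and low-, mid- and high-dose tropifexor. Of 7 stellate cell and fibroblast markers 6 were called higher in each vehicle group over lean control, and 0, 3, 7 and 7 were called lower under the same 4 treatments. Lum, 1 of the 7, was called higher under OCA (0.46).

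Sequence bears on which of these genes the reads can tell apart. Gsta1 (chr9:78230656-78242684, plus strand) and Gsta2 (chr9:78331018-78355788, minus strand) are neighbours in GRCm38. Of the distinct 50-base stretches of Gsta1 transcripts, 90.5% also occur in transcripts of another gene, with 75.7% in Gm3776. Gm3776 had no deposited values under that name. For Gsta2 this share was 49.8%, with 36.0% shared with Gsta1. The shares were 54.3% for Gstp2 and 33.7% for Gstp1, which share with each other, 34.7% for Gpx4 (with Gpx4-ps2), 28.8% for Gstm3, 18.9% for Gstm1 and 12.5% for Gstt3, and under 10% for each of the remaining genes. The sources used here do not say how such reads were split, so the values of these 8 genes are uncertain as to which copy gave them. The likeness reaches the promoters. The lines below give the bases before the RefSeq start sites (GRCm38.p6, 5′ to 3′ on the gene's strand, trimmed to end before any GENCODE M21 exon of the gene in that window) for the genes with the largest called changes at the high dose among those called the same way at every tropifexor dose. The Gsta2 window lies inside the bounds of Gsta2 given above, so it does not precede the gene's first GENCODE exon. Capitals mark the 29-base run that the Gsta1 and Gsta2 windows share.

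Gstm3 (chr3:107969284-107969424, minus strand): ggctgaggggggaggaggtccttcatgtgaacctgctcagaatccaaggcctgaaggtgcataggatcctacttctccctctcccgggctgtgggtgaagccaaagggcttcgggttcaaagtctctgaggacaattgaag
Gsta2 (chr9:78347169-78347395, minus strand): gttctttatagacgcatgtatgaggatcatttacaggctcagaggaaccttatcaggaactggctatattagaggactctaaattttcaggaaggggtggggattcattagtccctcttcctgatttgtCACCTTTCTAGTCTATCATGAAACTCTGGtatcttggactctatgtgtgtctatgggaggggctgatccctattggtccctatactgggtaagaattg
Gsta1 (chr9:78230419-78230655, plus strand): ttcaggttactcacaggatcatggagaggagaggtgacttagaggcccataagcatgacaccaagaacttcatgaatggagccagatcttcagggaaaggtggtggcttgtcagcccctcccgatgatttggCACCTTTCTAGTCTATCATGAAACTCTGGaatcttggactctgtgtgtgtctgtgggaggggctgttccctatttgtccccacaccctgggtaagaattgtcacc

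Neither motif searched was found in these windows. The motifs were TGACNNNGC, the core of the antioxidant response element that NRF2 binds, and AGGTCANTGACCT, the inverted repeat IR-1 that FXR binds, both read on either strand of the 250 bases before a start site. Gsta4, the other gene chosen by that rule, is named only. RefSeq windows were matched for 40 of the 46 genes. The antioxidant response element core was in 8 of their 55 windows (14.5%), against 3338 of 32851 windows of all genes (10.2%), and IR-1 was in none of the 55 and in 2 of the 32851 (0.00609%). The 8 matches are shown with 10 bases on either side, read in the direction of the motif, which is in capitals. A match is a description of the letters and not a measured binding site. A window without a match says nothing about sites farther from the start. The exact IR-1 letters are so rare over all windows that their absence from 55 tells nothing about these genes.

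Gclm (chr3:122245413-122245441, opposite strand): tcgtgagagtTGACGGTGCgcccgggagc
Ggt1 (chr10:75568616-75568644, opposite strand): tccccagcagTGACCCAGCtcctcccttc
Ggt1 (chr10:75571467-75571495, gene strand): gtcacaagccTGACGCTGCgcctccttgc
Gsta3 (chr1:21240454-21240482, gene strand): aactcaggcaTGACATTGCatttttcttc
Gstm5 (chr3:107895802-107895830, gene strand): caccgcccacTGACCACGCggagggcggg
Gstm7 (chr3:107931725-107931753, gene strand): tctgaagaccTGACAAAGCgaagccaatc
Mgst1 (chr6:138140461-138140489, opposite strand): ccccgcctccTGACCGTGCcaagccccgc
Prdx1 (chr4:116685456-116685484, opposite strand): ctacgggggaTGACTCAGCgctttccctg

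Read together, these genes made up a large pool of liver RNA. Their FPKM, set on 1 scale, summed to 15165 in the OCA group and 15578 in its vehicle group, to 15718, 13378, 17926 and 25892 in the tropifexor vehicle, low-, mid- and high-dose groups, and to 13822 in lean control. Mgst1, a membrane-bound transferase of the endoplasmic reticulum and outer mitochondrial membrane, was the most abundant in 6 groups, with 25.0% to 46.5% of the sum. In the high-dose group it gave way to the mu-class Gstm1 (chr3:108012255-108017973, minus strand), which alone held 47.2%. In the vehicle and lean groups Gstm1 came next, followed by Gpx1, the general cytosolic glutathione peroxidase, and Gsta3, the main alpha-class transferase. At the low end, Gsto2, Gstt4, Gpx5, Ggt7 and Mgst2 stayed under 0.5 FPKM in all 7 groups.

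**Figure D1:**
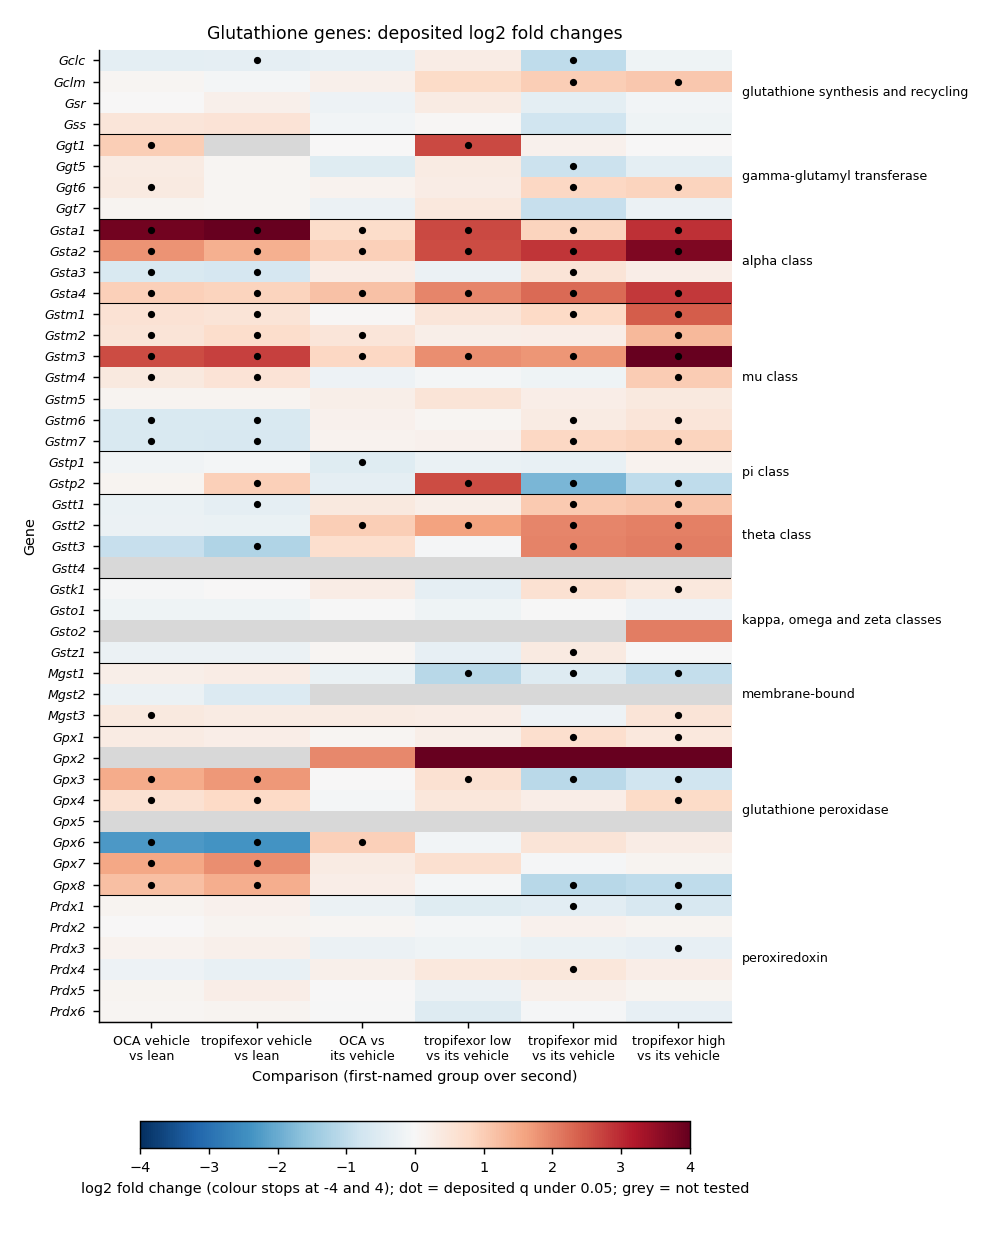
Deposited log2 fold changes of the 46 genes (rows, by role) in 6 comparisons (columns), with colour stopping at -4 and 4, a dot where the deposited q is under 0.05 and grey where the gene was not tested. The alpha- and mu-class rows Gsta1, Gsta2, Gsta4 and Gstm3 carry a dot in every column, and the theta-class rows carry a dot in every mid- and high-dose column except the untested Gstt4.

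The NASH diet raised more of these genes than it lowered. In the OCA vehicle group over lean control, 14 of the 42 genes tested were called higher and 4 lower, which is 33.3% and 9.52%, where 11.4% and 6.56% of all 15774 genes tested were called. In the tropifexor vehicle group over lean control, 12 of 41 were called higher and 7 lower (29.3% and 17.1%), against 12.1% and 8.53% of all 15484 genes tested. Both comparisons share the lean control group and are not independent. The median log2 fold change of the genes tested was 0.12 in each, against 0.02 and 0.01 over all genes.

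Within the cytosolic transferases the diet moved members of the same class in opposite directions. Gsta1, an alpha-class transferase scarcely present in lean liver, stood at 4.56 FPKM in the OCA vehicle group and 0.311 FPKM in lean control, and at 5.84 FPKM in the tropifexor vehicle group and 0.312 FPKM in lean control, log2 fold changes of 3.87 and 4.22 in the authors' deposited tables (q = 0.000588 and 0.000507, the smallest either table reached). Both vehicle groups were thus over 10-fold above lean control on this gene. Gsta2 was higher by 1.81 and 1.42 (log2), and Gsta4, which removes the lipid peroxidation product 4-hydroxynonenal, by 0.95 and 0.88. Gsta3 went the other way, at 930 FPKM in the OCA vehicle group against 1418 FPKM in lean control and at 904 FPKM in the tropifexor vehicle group against 1426 FPKM, log2 fold changes of -0.61 and -0.66 in the deposited tables (q = 0.0317 and 0.000507). In summed FPKM the fall of Gsta3 outweighed the rise of its neighbours in class: the alpha class totalled 1049 and 1011 FPKM in the OCA and tropifexor vehicle groups, against 1479 FPKM in lean control.

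The mu class, 7 genes on chromosome 3 between 107895821 and 108044894, split likewise. Gstm3 (chr3:107963696-107969283, minus strand) was at 104 FPKM in the OCA vehicle group and 16.9 FPKM in lean control, and at 113 FPKM in the tropifexor vehicle group and 16.9 FPKM in lean control (deposited log2 2.62 and 2.73). Gstm1 was higher by 0.57 and 0.50, Gstm2 by 0.50 and 0.70 and Gstm4 by 0.39 and 0.55, all called. Gstm6 (deposited log2 -0.61 in both comparisons) and Gstm7 (-0.60 and -0.65) were called lower. Gstm5 was not called, at deposited log2 fold changes of 0.12 and 0.10. Among theta-class genes, whose enzymes act on small halogenated compounds, Gstt3 was called lower in the tropifexor vehicle group (deposited log2 -1.19, q = 0.0169) and just missed the threshold in the OCA vehicle group (-0.93, q = 0.0501). Gstt1 was called lower in the tropifexor vehicle group (-0.35) and not in the OCA vehicle group (-0.27).

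Among the glutathione peroxidases 4 of 6 tested were called higher and 1 lower in each vehicle group over lean control. Gpx7 and Gpx8, peroxidases of the endoplasmic reticulum, were higher by 1.55 and 1.19 in the OCA vehicle group and by 1.87 and 1.45 in the tropifexor vehicle group (deposited log2). Gpx3, the secreted plasma enzyme, reached 9.16 FPKM in the OCA vehicle group against 3.27 FPKM in lean control and 11.0 FPKM in the tropifexor vehicle group against 3.28 FPKM (deposited log2 1.49 and 1.74). Gpx4, which reduces phospholipid hydroperoxides within membranes, was higher by 0.60 and 0.80. Gpx6, a low gene that in the mouse encodes a cysteine rather than a selenocysteine enzyme, was called lower (deposited log2 -2.31 and -2.40), at 0.775 FPKM in the OCA vehicle group against 3.84 FPKM in lean control and at 0.734 FPKM in the tropifexor vehicle group against 3.86 FPKM. In the same comparisons the summed FPKM of the 7 stellate cell and fibroblast markers was 279 and 323 in the vehicle groups against 141 and 142 in lean control, and that of the 7 macrophage markers 274 and 259 against 144 and 145. The part of these cells in the peroxidase values was not tested, and in bulk liver a change in the number of cells of a type and a change in RNA per cell cannot be told apart.

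In the remaining roles few genes were called. None of the 6 peroxiredoxins was called in either comparison, with deposited log2 fold changes between -0.20 and 0.15 in the OCA vehicle group and between -0.31 and 0.28 in the tropifexor vehicle group. Gclc was called lower in the tropifexor vehicle group (deposited log2 -0.35, q = 0.0424), with nearly the same value in the OCA vehicle group (-0.39, q = 0.0508), and Gclm, Gss and Gsr were not called. Mgst3 and Ggt6 were called higher in the OCA vehicle group (0.38 and 0.35), as was Ggt1 at 0.262 FPKM against 0.131 FPKM in lean control, and Gstp2 was called higher in the tropifexor vehicle group (0.94). The difference between the 2 diet effects themselves was called for 0 of 41 genes by a normal approximation to the difference with Benjamini-Hochberg adjustment, with 0 at an unadjusted p under 0.05 and 0 with a rescaled standard error. The rescaled error is the error implied by fold change and test statistic, divided by a factor (2.03 to 2.05). That factor brings the error to the deposited p-value in the median gene of a table, and not in every gene. Over all 15230 genes the difference test called 0.0525% higher and 0.0460% lower, and 0.184% and 0.197% with the rescaled error. Both effects are over the same lean control group and the errors were added as if independent, so the test is too cautious and a call of 0 does not show that the effects were alike.

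OCA raised a small set led by the alpha class. Of 42 genes tested against the OCA vehicle group, 7 were called higher and 1 lower (16.7% and 2.38%), where 1.81% and 2.23% of all 15706 genes tested were called. Gsta4 was at 220 FPKM under OCA and 97.6 FPKM in its vehicle group, a deposited log2 fold change of 1.17 (q = 0.00268, the smallest of that table). Gsta2 was at 36.2 FPKM under OCA and 18.6 FPKM in its vehicle group (log2 0.96), Gstt2 at 62.1 FPKM and 31.7 FPKM (0.97), and Gstm3 at 196 FPKM and 110 FPKM (0.83). Gsta1 (0.73), Gstm2 (0.49) and Gpx6 (0.95) were also called higher in the deposited table. The level of Gpx6 was low, at 1.51 FPKM under OCA and 0.779 FPKM in its vehicle group on 1 scale. The called fall was that of Gstp1, the main pi-class transferase, at 177 FPKM under OCA against 246 FPKM in its vehicle group (log2 -0.48, q = 0.0201). No gene of synthesis or recycling, no gamma-glutamyl transferase, no membrane-bound transferase and no peroxiredoxin was called under OCA, where the deposited log2 fold changes of those 16 genes that were tested lay between -0.47 and 0.32.

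More of the genes were called at the mid and high tropifexor doses than at the low dose. At the low dose 8 of 42 genes tested were called higher and 1 lower (19.0% and 2.38%), against 6.03% and 5.20% of all 16144 genes tested. At the mid dose 17 of 42 were called higher and 7 lower (40.5% and 16.7%), against 11.8% and 15.7% of 15686. At the high dose 18 of 43 were called higher and 6 lower (41.9% and 14.0%), against 9.93% and 15.5% of 15818. The share called higher was thus above that of all genes at each dose, while the share called lower stood near or below it. The median rescaled standard error of the genes was 0.219 at the low dose, against 0.153 and 0.154 at the mid and high doses. A change of a given size was thus less readily called at the low dose. The median log2 fold changes of the genes tested were 0.26, 0.25 and 0.29 at the low, mid and high doses. The counts alone therefore do not rank the doses by size of effect. The 3 comparisons share the tropifexor vehicle group. Gsta1, Gsta2, Gsta4, Gstm3 and Gstt2 were called higher at every dose, and Mgst1 was called lower at every dose.

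**Figure D2:**
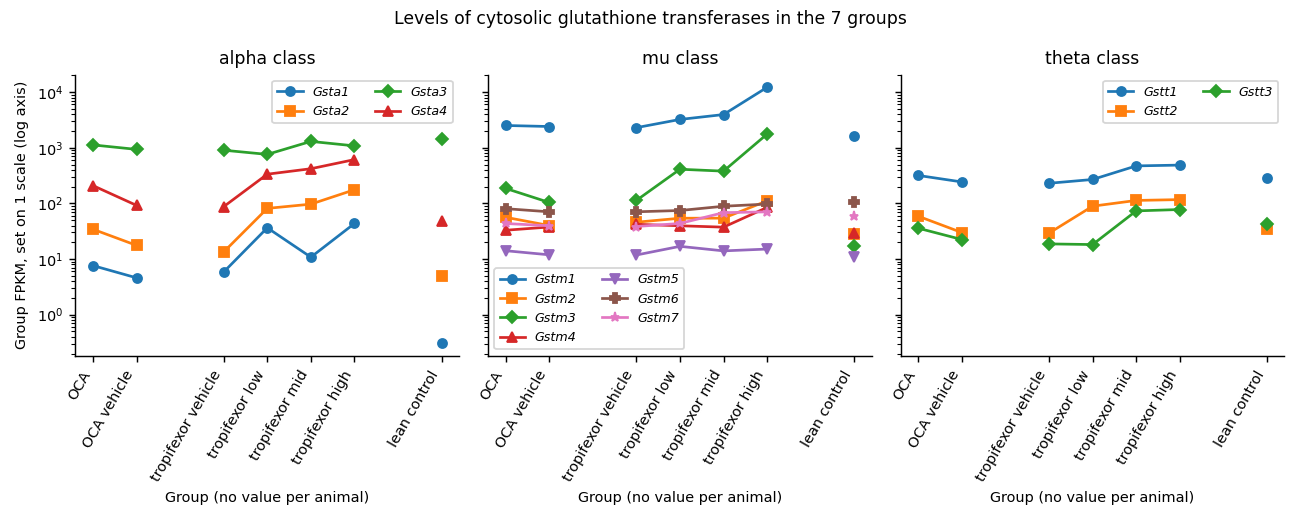
Group FPKM of the alpha-, mu- and theta-class transferases in the 7 groups, set on 1 scale, on a log axis, with each line joining a drug group or dose series to its own vehicle. Gstm1 and Gstm3 stand highest in the high-dose group, at 12214 and 1763 FPKM, and Gsta1 lies lowest in lean control, at 0.312 FPKM.

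In the alpha class the low-abundance members rose most, and the abundant Gsta3 was called at 1 dose alone. Gsta2 was at 13.4, 81.3, 96.9 and 176 FPKM in the tropifexor vehicle, low-, mid- and high-dose groups on 1 scale, and its deposited log2 fold change over vehicle was 2.60, 2.86 and 3.73 at the 3 doses. Gsta4 was at 87.4, 335, 420 and 613 FPKM in the same groups (1.94, 2.27 and 2.83). Both genes thus stood higher at each step of dose. Gsta1 did not: it was at 5.84 FPKM in the vehicle group and at 36.4, 10.8 and 43.5 FPKM at the low, mid and high doses, with log2 fold changes of 2.64, 0.89 and 2.91 in the authors' deposited tables, and its mid-dose value lay nearer to vehicle than to the doses on either side. Gsta3 was called only at the mid dose, at 1300 FPKM against 901 FPKM in vehicle (log2 0.53, q = 0.00441), with values of -0.25 and 0.27 at the low and high doses. The alpha class summed to 1011, 1213, 1828 and 1914 FPKM from vehicle to high dose, and the share of Gsta3 in that sum was 89.4%, 62.7%, 71.1% and 56.5%.

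The mu class carried the largest absolute change. Gstm1 was at 2299, 3229, 3954 and 12214 FPKM in the tropifexor vehicle, low-, mid- and high-dose groups on 1 scale, and its deposited log2 fold changes were 0.49 (not called, q = 0.431), 0.79 and 2.43 (both called). Gstm3 was at 113, 411, 380 and 1763 FPKM (1.87, 1.76 and 3.99), a 15.8-fold difference between the high dose and vehicle by the deposited FPKM. Both genes held close values at the low and mid doses and stood apart at the high dose. Gstm2 and Gstm4 were called at the high dose alone, at 117 FPKM against 47.5 FPKM in vehicle and at 88.8 FPKM against 43.6 FPKM (log2 1.29 and 1.03), and their values at the low and mid doses lay between -0.17 and 0.25. Gstm7 and Gstm6, which the diet had lowered, were higher at the mid dose by 0.83 and 0.34 and at the high dose by 0.89 and 0.48, and Gstm5 was not called at any dose (0.53, 0.26 and 0.38). Gstm2-ps1, a pseudogene named here after its values were seen, holds 14.1% of the 50-base stretches of Gstm1 and was itself called higher at the 3 doses, by 0.99, 0.94 and 2.34, at 26.3 FPKM in the high-dose group against 5.18 FPKM in vehicle.

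Theta-class genes rose at the mid and high doses. Gstt2 (chr10:75831114-75837424, minus strand) was at 29.2, 89.1, 113 and 117 FPKM from vehicle to high dose on 1 scale (deposited log2 1.61, 1.96 and 2.02). Gstt3 was at 18.7, 18.2, 73.3 and 77.6 FPKM, so its low-dose level matched vehicle (-0.04, q = 0.988) and its mid- and high-dose levels lay about 4 times above it (1.97 and 2.06). Gstt1 followed the same order at 230, 269, 472 and 488 FPKM (0.23, 1.05 and 1.10, the last pair called). The mid and high doses gave nearly equal values for each of the 3 genes. Gstk1, a transferase of mitochondria and peroxisomes, was called higher at the mid and high doses (0.62 and 0.41) after a low-dose value of -0.37 that was not called. Gstz1, which also serves as maleylacetoacetate isomerase in tyrosine breakdown, was called higher at the mid dose alone (0.36), and Gsto1 was not called at any dose (-0.16, -0.01 and -0.19).

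**Figure D3:**
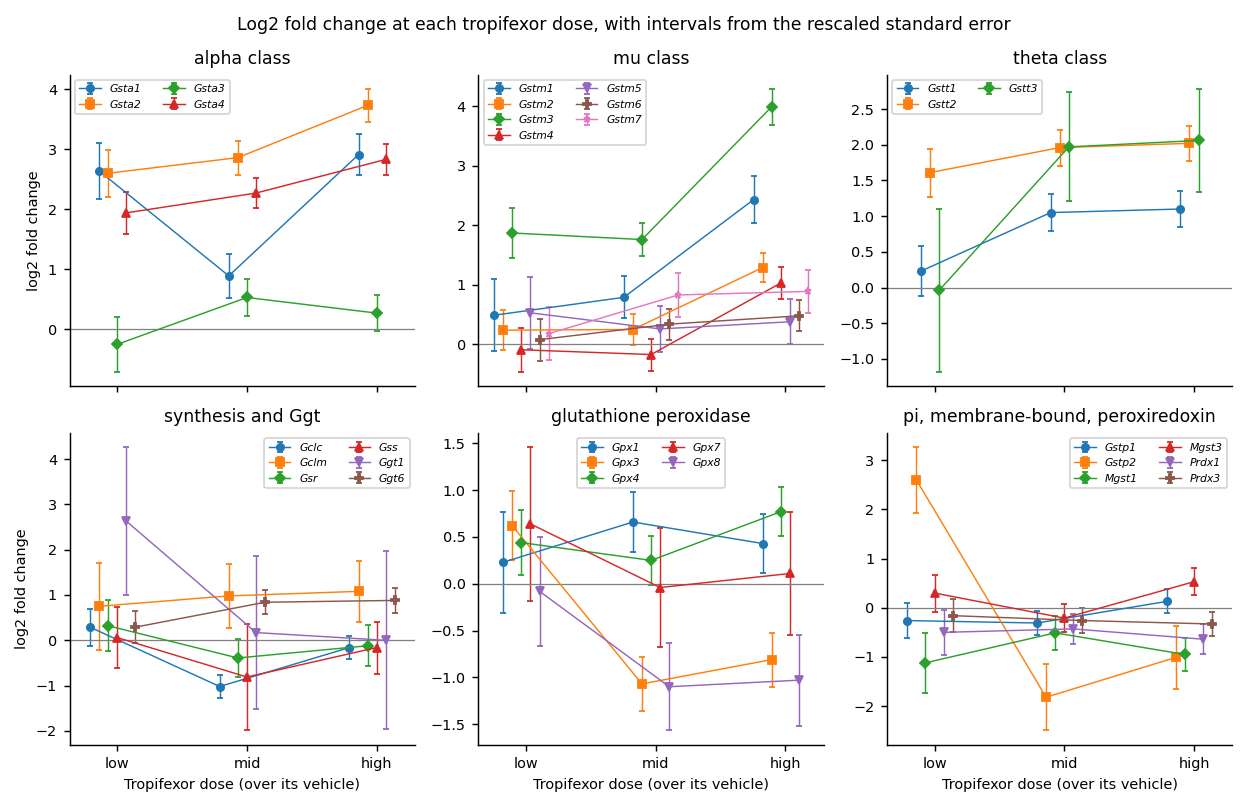
Log2 fold change over the tropifexor vehicle (vertical axis) at the low, mid and high doses (horizontal axis) for 31 genes in 6 panels, with bars for 95% intervals from the rescaled standard error. Gstm3 stands highest in the mu panel at the high dose (3.99), and Gstp2 lies above 0 at the low dose (2.60) and below it at the mid and high doses (-1.82 and -1.01).

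Pi-class and membrane-bound transferases did not follow the other classes. Gstp2, a low gene next to Gstp1, was at 1.48, 9.09, 0.419 and 0.731 FPKM in the tropifexor vehicle, low-, mid- and high-dose groups, called higher at the low dose (deposited log2 2.60) and lower at the mid and high doses (-1.82 and -1.01). Gstp1 was not called at any dose (-0.26, -0.31 and 0.13), at 198 to 265 FPKM. Mgst1 fell at every dose, to 3818 FPKM at the low dose against 8325 FPKM in vehicle, to 5108 FPKM at the mid dose against 7274 FPKM, and to 3909 FPKM at the high dose against 7569 FPKM, with log2 fold changes of -1.12, -0.51 and -0.95 in the authors' deposited tables (q = 0.00665, 0.0202 and 0.000396). Its mid-dose level was the least lowered. Mgst3 was called higher at the high dose alone (0.53), and Mgst2, which takes part in leukotriene C4 synthesis, was not tested at any dose over vehicle.

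Among glutathione peroxidases Gpx1 and Gpx4 rose at 1 or more doses, and Gpx8, raised by the diet, fell at the mid and high doses, as did Gpx3. Gpx1 was at 2939 FPKM at the mid dose against 1864 FPKM in vehicle and at 2623 FPKM at the high dose against 1941 FPKM (deposited log2 0.66 and 0.43, both called), and Gpx4 at 143 FPKM at the high dose against 84.0 FPKM (0.77). Gpx3 was higher at the low dose, at 19.2 FPKM against 12.5 FPKM in vehicle (0.62, q = 0.0171), and lower at the mid and high doses, at 5.23 FPKM against 10.9 FPKM and at 6.49 FPKM against 11.4 FPKM (-1.07 and -0.81). Gpx8 was at 2.26 FPKM at the low dose against 2.39 FPKM in vehicle (-0.08, not called), at 0.976 FPKM at the mid dose against 2.09 FPKM (-1.10) and at 1.07 FPKM at the high dose against 2.18 FPKM (-1.03). Gpx7, raised by the diet like Gpx8, was not called at any dose (0.64, -0.04 and 0.11). The summed stellate cell and fibroblast markers stood at 361, 122 and 157 FPKM at the low, mid and high doses against 368, 321 and 334 FPKM in vehicle, and the summed macrophage markers at 220, 131 and 170 FPKM against 294, 257 and 268 FPKM. Their part in the values of Gpx3 and Gpx8 was not tested.

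Gpx2 showed the largest ratio of all and yet was not called. This enzyme of the gut lining was at 0.241 FPKM in the tropifexor vehicle group and at 6.64, 8.65 and 42.2 FPKM at the low, mid and high doses on 1 scale, against 0.190 FPKM in lean control. Its deposited log2 fold changes over vehicle were 4.78, 5.17 and 7.47, with q = 0.269, 0.454 and 0.471. The group values lie far apart, yet the authors' test did not call them, and without values per animal it cannot be seen how many animals were high. Under OCA it was at 0.510 FPKM against 0.136 FPKM in its vehicle group (1.91, q = 0.990).

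Synthesis, recycling and gamma-glutamyl transfer changed in single genes. Gclm, the modifier subunit, was called higher at the mid and high doses, at 328 FPKM against 166 FPKM in vehicle and at 365 FPKM against 173 FPKM (deposited log2 0.98 and 1.08), while its low-dose value of 0.75 was not called (q = 0.319). Gclc, the catalytic subunit, was called lower at the mid dose, at 48.6 FPKM against 98.2 FPKM in vehicle (-1.02, q = 0.000361), and was not called at the low and high doses (0.29 and -0.16). On 1 scale the level of Gclc was lowest of the 7 groups at the mid dose (48.6 FPKM) and highest in lean control (126 FPKM). Gss and Gsr were not called at any dose, with values between -0.81 and 0.32. Ggt1, which splits glutathione outside the cell, was at 1.75 FPKM at the low dose against 0.283 FPKM in vehicle (2.63, q = 0.000968) and at 0.278 and 0.258 FPKM at the mid and high doses against 0.248 and 0.258 FPKM. Ggt6 was called higher at the mid and high doses (0.84 and 0.88), and Ggt5, which in the mouse acts on leukotriene C4, was called lower at the mid dose (-0.87).

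Ggt1, Gstp2 and Gpx3 were each called higher at the low dose and at no other, and cell markers were called there too. Of 5 cholangiocyte markers 4 were called higher at the low dose, against 0 at the mid and high doses, where 2 and 1 were called lower, and their summed FPKM was 311 at the low dose against 196 in vehicle, 70.3 at the mid dose against 172, and 115 at the high dose against 179. The 2 neutrophil markers summed to 16.3 FPKM at the low dose against 9.22 FPKM in vehicle, neither being called. Whether these cells have a part in the values of Ggt1, Gstp2 and Gpx3 was not tested.

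Of the 6 peroxiredoxins 0, 1 and 0 were called higher and 0, 1 and 2 lower at the low, mid and high doses. Of all genes tested 6.03%, 11.8% and 9.93% were called higher and 5.20%, 15.7% and 15.5% lower. So few genes cannot show whether the class differed from all genes. Prdx1, a cytosolic enzyme, was called lower at the mid and high doses, at 291 FPKM against 390 FPKM in vehicle and at 261 FPKM against 406 FPKM (deposited log2 -0.43 and -0.64), after a low-dose value of -0.50 that was not called (q = 0.201). Prdx3 of the mitochondria was called lower at the high dose (-0.33, q = 0.0460), and Prdx4 of the endoplasmic reticulum higher at the mid dose (0.45). Prdx2, Prdx5 and Prdx6 were not called at any dose, with values between -0.52 and 0.19.

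Set against lean control, each treated group had more of these genes called higher than lower. Of the genes tested, 14 of 41 were called higher and 4 lower under OCA (34.1% and 9.76%), against 10.3% and 6.50% of all 15208 genes tested, and 15 of 43 higher and 6 lower at the low dose (34.9% and 14.0%), against 13.8% and 10.1% of 15937. At the mid dose 17 of 42 were higher and 3 lower (40.5% and 7.14%), against 11.7% and 11.5% of 15229, and at the high dose 19 of 43 were higher and 7 lower (44.2% and 16.3%), against 12.2% and 15.2% of 15443. These 4 comparisons share the lean control group. Gsta1 was at 41.9 FPKM in the high-dose group and 0.301 FPKM in lean control, a deposited log2 fold change of 7.12, and Gstm3 at 1698 FPKM and 16.3 FPKM (6.70). Gstm1 reached 11767 FPKM in the high-dose group against 1565 FPKM in lean control (2.91).

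Genes of the other roles stood at varied distances from lean control. Gpx8, called higher in both vehicle groups, was not called at the mid and high doses over lean control (deposited log2 0.34 and 0.40) and was still called at the low dose and under OCA (1.37 and 1.47). Gpx3 stayed called higher at 0.67 and 0.92 at the mid and high doses, against 2.36 at the low dose. Gpx7 stayed higher in all 4 groups (1.83 to 2.51) and Gpx6 lower in all 4 (-2.50 to -1.36). Gstm6 was called lower over lean control at the low dose and under OCA (-0.53 and -0.42) and not at the mid and high doses (-0.28 and -0.14). Gstt1 and Gstt3, called lower in the tropifexor vehicle group, were called higher than lean control at the mid dose (0.70 and 0.78) and at the high dose (0.74 and 0.86). Mgst1, not called in the vehicle groups (0.23 and 0.29), was below lean control at the low and high doses, at 3500 FPKM against 6239 FPKM and at 3595 FPKM against 5745 FPKM (-0.83 and -0.68), and Gclc was below it at the mid and high doses and under OCA (-1.37, -0.53 and -0.68). Other calls over lean control included Mgst2, lower at the high dose (-1.77), and Gsta3, lower at the low and high doses (-0.91 and -0.40). Gstz1 was called lower at the low dose, and Gsto1 and Prdx1 at the high dose. Prdx5 was called higher at the mid and high doses.

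The effects of high-dose tropifexor and OCA, each over its own vehicle, were set against each other by subtracting one log2 fold change from the other. A difference was called by a normal approximation with Benjamini-Hochberg adjustment (threshold 0.05) over the 15206 genes tested in both tables. With 4 animals a group such an approximation is rough, so intervals are given and no p-values. The difference was called for 5 of 42 genes, each with the larger effect under tropifexor, where 0.750% of all genes were called higher and 0.940% lower. With the rescaled error it was called for 16, of which 14 were higher and 2 lower (Gpx3, -0.81, and Gpx8, -1.30), where 4.30% of all genes were called higher and 7.15% lower. The 14 include Gpx2, which the authors' own test called neither at the high dose nor under OCA. The difference was 3.15 for Gstm3 (95% interval 2.30 to 4.01), 2.77 for Gsta2 (1.98 to 3.55), 2.37 for Gstm1 (1.12 to 3.62), 2.19 for Gsta1 (1.16 to 3.21) and 1.65 for Gsta4 (0.93 to 2.38). Gstt2, called under both drugs, differed by 1.05 (0.34 to 1.76), which was called with the rescaled error alone. The 2 drugs were given at different doses per kg, so this compares those treatments and not the compounds dose for dose.

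**Figure D4:**
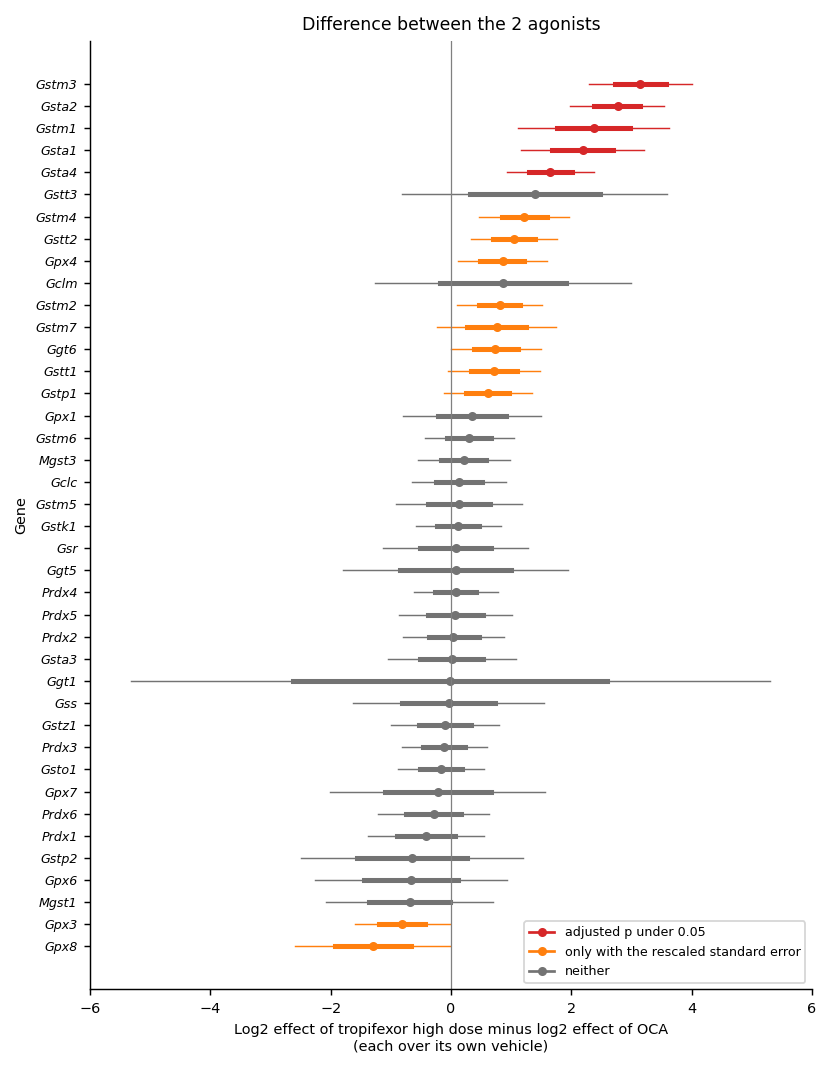
Difference of log2 effects, high-dose tropifexor minus OCA, each over its own vehicle (horizontal axis), for 40 genes, with thin lines for 95% intervals from the implied standard error and thick lines for those from the rescaled one. The 5 genes in red, Gstm3 at the top (3.15), have an adjusted p under 0.05, and Gpx2 and Ggt7 are left out because their intervals run past the axis.

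Between the high and the low tropifexor dose the same test called 1 of 42 genes, where 0.0711% of 15467 genes were called higher and 0.207% lower. With the rescaled error 11 were called, 9 higher and 2 lower, against 1.46% and 4.17% of all genes. Both effects are over the same tropifexor vehicle group and the errors were added as if independent, so these intervals are too wide and the calls too few. The gene called with the main error was Gstm3, with a difference of 2.12 (95% interval 1.06 to 3.18). Gstp2 had the largest difference in the other direction, -3.61 (-5.49 to -1.73), which was called with the rescaled error alone. Gstm1 differed by 1.94 (0.46 to 3.42), Gsta2 by 1.13 (0.15 to 2.11) and Gsta1 by 0.27 (-0.90 to 1.45), none of them called with the main error.

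Genes around the glutathione system were described from lists, in the same tables. Their counts are to be read beside the shares of all genes called. Those were 1.81%, 6.03%, 11.8% and 9.93% higher under OCA and at the low, mid and high doses. The shares called lower were 2.23%, 5.20%, 15.7% and 15.5%. In the OCA and tropifexor vehicle groups over lean control they were 11.4% and 12.1% higher and 6.56% and 8.53% lower. Not every list count was above its share. Of 12 genes of NRF2 and its known targets outside the family, 5 and 4 were called higher and 0 lower in the OCA and tropifexor vehicle groups over lean control. Over their vehicles, 0 were called higher and 1 lower under OCA, 5 and 0 at the low dose, 1 and 1 at the mid dose, and 8 and 1 at the high dose. Nqo1, a quinone reductase, was higher by 1.59 at the low dose and 1.72 at the high dose in the authors' deposited tables, and Cbr3, a carbonyl reductase, by 3.67 and 2.21. Hmox1, which breaks down heme, was the 1 called lower at the mid and high doses (-1.22 and -1.17) and under OCA (-0.50). The median of the list was 0.13, 0.18 and 0.59 at the low, mid and high doses, against 0.26, 0.25 and 0.29 for the glutathione genes.

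In cysteine supply a few genes were called. Of 10 or 11 genes tested, 3, 2 and 1 were called higher and 1, 1 and 3 lower at the low, mid and high doses. Cth, which makes cysteine from cystathionine, was called higher at every dose (deposited log2 1.74, 2.58 and 1.72) and lower in both vehicle groups over lean control (-0.62 and -0.59), and Slc7a11, the cystine importer, was called higher at the low dose alone (5.15). Of this list 11 genes were tested at the low dose and 10 at the mid and high doses. The lack of a call for Slc7a11 there is therefore not shown to be a test result. Csad, of taurine synthesis, was called lower under OCA (-1.59) and at the 3 doses (-2.29, -2.26 and -1.98) and higher in both vehicle groups over lean control (1.14 in the tropifexor vehicle group). Of 12 genes of glutathione breakdown and export, 0, 1, 0 and 0 were called higher and 1, 1, 5 and 1 lower under OCA and at the low, mid and high doses, the mid-dose falls including the breakdown enzyme Chac1 (-1.80) and the conjugate exporter Abcc3 (-1.05). Of 14 thioredoxin and glutaredoxin genes, 0, 3, 2 and 2 were called higher and 1, 2, 2 and 5 lower, with Txnrd1, which reduces thioredoxin, higher at all 3 doses (0.90, 0.69 and 1.10) and Srxn1, which repairs oxidised peroxiredoxins, higher at the low and high doses (2.03 and 0.74) and in both vehicle groups over lean control (0.77 and 0.97).

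Genes that make or remove peroxide and supply NADPH complete the setting. Of 10 genes of superoxide and hydrogen peroxide, 0, 1, 4 and 2 were called higher and 1, 2, 3 and 2 lower under OCA and at the low, mid and high doses. Hao1, a peroxisomal oxidase that releases hydrogen peroxide, was called lower at every dose (deposited log2 -1.71, -1.10 and -2.76), and catalase (Cat) was called higher at the mid dose alone (0.56). Of 7 genes of NADPH supply, 0, 1, 0 and 1 were called higher and 0, 1, 0 and 2 lower, with malic enzyme (Me1) lower at the low and high doses (-1.53 and -1.46). Among 9 xenobiotic receptors and their first targets, Nr1i2, the receptor PXR, was called higher under OCA (0.40) and at the 3 doses (1.53, 2.23 and 1.85), while Cyp3a11, its usual target in liver, was called lower at the 3 doses (-0.88, -0.50 and -0.50) and higher in both vehicle groups over lean control (2.19 and 1.91). Cyp2b10, the usual target of the receptor CAR, was called lower under OCA (-1.88) and at the mid and high doses (-1.12 and -3.28). Over lean control it was called higher in the OCA and tropifexor vehicle groups (4.73 and 2.08) and in the OCA group (2.85).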

How the data were processed

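Per the labels' protocols, 500 ng of liver RNA went into stranded libraries. Roles are not stated, but per the submitters' processing notes Cuffdiff, Cuffnorm and Cufflinks 2.2.1 were used with STAR 2.5.1b, bcl2fastq and GRCm38. Nothing says whether reads were assigned by strand, so genes with exons overlapping another gene on the opposite strand (Gclm, Ggt7, Gss, Gstm5, Gstz1, Prdx2 and Prdx5) are uncertain. The FPKM of each group, the log2 fold change and the test statistic (both read as a score, since genes near 0 give log2 values beyond any usual range), the p-value and the q-value are the authors' deposited Cuffdiff values, per the file headers. The smallest deposited p was 5e-05. Read depth is unknown, and group FPKM summed to between 706031 and 915996 in a table.

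Each vehicle group was matched to its tables by values: after a constant shift the median log2 deviation of its FPKM was 0.000980 or less, against 0.0914 or more for the other vehicle group. For the 3 differences of effects, a standard error was implied by each fold change and its statistic. In the median gene of a table the deposited p-value corresponds to a normal deviate 2.03 to 2.05 times that statistic. An error divided by this factor (rescaled) was therefore an alternative. Single genes depart from the factor. Ggt1 in the OCA vehicle group over lean control had a deposited Cuffdiff p of 0.00875. Its log2 fold change there was 0.99, with a rescaled error of 1.14. The errors of 2 effects were added as if independent, also where they share a group. No SD, exact test over animals or left-out library was possible. The genes, lists and alternatives were chosen with earlier results of these data known. By rule, called members were named with their values and others given by role. For the treated groups over lean control the called members were named only in part. Further genes were named from the lists and markers and where called. Outside these, Gm3776, Gpx4-ps2 and Gstm2-ps1 were named for the sequence they share with members. Python 3.11.15, numpy 2.4.6, pandas 2.3.3 and scipy 1.17.1 were used.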

Additional observations from a re-analysis of the deposited data

Results flagged for a closer look

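Differences between the 2 drugs stood out for 5 genes and a difference between doses for 1. The log2 effect of high-dose tropifexor minus that of OCA was 3.15 for Gstm3, 2.77 for Gsta2, 2.37 for Gstm1, 2.19 for Gsta1 and 1.65 for Gsta4, each drug over its own vehicle. The log2 effect of high-dose tropifexor minus that of the low dose was 2.12 for Gstm3. These 6 differences were called by the normal approximation with Benjamini-Hochberg adjustment, and each is positive, that is larger at the high tropifexor dose.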

How the results depend on the processing

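No paired analysis was possible because the tables hold no value per animal, and for the same reason no library was left out. Of the 46 alternative counts tried (a deposited q under 0.01 or 0.1, genes of at least 1 FPKM re-adjusted, folds of at least 1.5, and the rescaled standard error), 43 stayed within 1.5 times their main count. With the rescaled standard error the difference between high-dose tropifexor and OCA was called for 16 genes in place of 5, and that between the high and low doses for 11 in place of 1, while the calls over all genes grew as well, to 4.30% higher and 7.15% lower and to 1.46% higher and 4.17% lower. With a mean of at least 1 FPKM in both tables the high and low doses differed for 2. All 30 alternative medians (a pseudocount of 1 FPKM, centring on all genes, at least 1 FPKM) moved by less than the median rescaled standard error of the genes. Sequence shared with other genes limits Gsta1, Gsta2, Gstp1, Gstp2, Gpx4, Gstm1, Gstm3 and Gstt3. A level under 1 FPKM in 1 or more groups limits Gpx2, Ggt1, Ggt5, Ggt7, Gsta1, Gstp2, Gsto2, Gstt4, Mgst2, Gpx5, Gpx6, Gpx7 and Gpx8.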
